A study of Mus musculus with 8 samples.

Results

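Rab GTPases are small membrane-bound switch proteins that give each compartment of the secretory and endocytic pathways its identity. In the GTP-bound form a Rab recruits effectors such as tethers, motors and sorting complexes. Exchange factors load it with GTP, GTPase activating proteins turn it off, and GDI carries the inactive form through the cytosol. In macrophages they are best known for phagosome maturation, the recycling of surface receptors and the delivery of cargo to lysosomes.

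The Rab genes described here are all genes whose name in the scanner files is Rab followed by a number and at most a letter and a digit. The rule found 57 genes, read by 82 probes, of 34844 gene names on the array, and each gene is represented by its brightest probe over the 8 arrays. Rab1, Rab6 and Rab7l1 are the array's names for the genes now called Rab1a, Rab6a and Rab29. The gene now called Rab7b, which the array lists under a clone name, and Rab42, listed as Rab42-ps, fall outside the rule. Both were well above background on 8 arrays, with mean log2 signals of 5.27 and -0.97.

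RNA came from bone marrow-derived macrophages, which are grown in culture from marrow precursors, of male C57BL/6J mice. Each of 4 mice gave cells for a control siRNA and for siRNA targeting the terminal loop of Y RNAs, so each group has 4 arrays. Y RNAs are small noncoding RNAs, and the study looked for genes that respond when they are targeted in macrophages. The sources used here do not give the siRNA sequences, their dose, the time after transfection or the age of the mice, and no untransfected cells were analysed here. No probe carries the name of a mouse Y RNA, so the lowering of the Y RNAs was not checked.

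Signals are given as log2 of the background-subtracted signal relative to that array's 75th percentile, so that 0 is the level of that percentile and 1 unit is a 2-fold change. All 8 arrays lay on 1 slide, with 48.7% to 50.7% of spots above background by the scanner software's call, and no saturated spot. Both arrays of mouse 1 stood apart from the other 6 on the first principal component of all genes, which held 43.1% of the variance. All 9 macrophage markers on the array, among them Csf1r, Emr1 and Cd68, were well above background on 8 arrays. On at least 4 arrays so were 2 of 7 dendritic cell markers (Siglech on 8 and Ccr7 on 5, with Flt3, Cd209a, Xcr1 and Itgae on none) and 2 of 7 lymphocyte markers (Cd3e and Cd79a on 8, with Ms4a1, Ncr1 and Cd8b1 on none). For neutrophils it was 5 of 8 (Elane, S100a8, S100a9 and Camp on 8 and Mpo on 6, with Ly6g and Ngp on none).

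The sequences below show what the Rab probes read and where the results turn on the probe. Each is written 5′ to 3′, and probe positions are those of the whole 60-base probe on mouse build mm9, with only a stretch of it printed. Rab15 has 2 probes that gave opposite differences between the siRNA groups. The brighter one lies at chr12:77898991-77899050 and the other at chr12:77901109-77901168, both on the minus strand, and the first 30 bases of each follow.
Rab15 brighter probe: gtgacctttgtgtactgtgtcttgggtcca
Rab15 other probe: tgggctttgcccaccaccgtcctttcattt
Rab38 has 2 overlapping probes on the plus strand, at chr7:95639879-95639938 and chr7:95639916-95639975, of which the first was well above background on 8 arrays and the second on none. The 23 bases that the probes share are in capitals in 30-base stretches of each.
Rab38 probe well above background: tgtggaaGATATATTATATATATTTTTCAC
Rab38 probe not above background: GATATATTATATATATTTTTCACaagtgaa
The upstream sequences of Rab14, the Rab gene with the brightest probe, and of Rab25, an epithelial relative of Rab11 that was not above background, show the difference in CG content described below. They are the 250 bases before the annotated start in RefSeq for GRCm38.p6, at chr2:35201121-35201370 and chr3:88548280-88548529, both on the minus strand, with every CG in capitals.
Rab14 upstream: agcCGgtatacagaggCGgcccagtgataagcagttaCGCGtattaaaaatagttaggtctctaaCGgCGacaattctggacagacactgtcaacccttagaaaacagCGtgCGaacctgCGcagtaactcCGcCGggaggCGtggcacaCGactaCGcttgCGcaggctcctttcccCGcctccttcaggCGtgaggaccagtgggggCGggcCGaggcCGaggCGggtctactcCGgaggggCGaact
Rab25 upstream: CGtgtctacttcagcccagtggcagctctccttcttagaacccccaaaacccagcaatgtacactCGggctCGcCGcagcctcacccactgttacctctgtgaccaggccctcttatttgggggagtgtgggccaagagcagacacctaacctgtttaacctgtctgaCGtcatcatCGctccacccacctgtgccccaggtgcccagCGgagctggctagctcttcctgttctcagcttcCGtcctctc

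Most of the family was detected in these macrophages. The gene's probe was well above background, a call that Feature Extraction makes for each spot, on at least 4 of 8 arrays for 48 of 57 Rab genes, or 84.2%. The same held for 55% of all gene names on the array. It was so on all 8 arrays for 47 Rab genes, or 82.5%, against 51.1% of all genes. Rab3b, a Rab of regulated exocytosis, passed on 7 arrays and missed only on the control array of mouse 3, where it read -4.69 against -4.40 to -4.14 on the other 7.

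The 9 Rab genes below that limit were Rab17, Rab26, Rab40b, Rab25, Rab30, Rab27b, Rab36, Rab9b and Rab39b. Rab17 and Rab25 are best known from epithelial cells and Rab39b from neurons. Their mean signals ran from -6.84 for Rab39b to -5.27 for Rab17. For 8 of them no array was above background, so each has only an upper bound in these cells. Rab30, a Golgi Rab, was above background on 1 array, the control array of mouse 3.

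**Figure D1:**
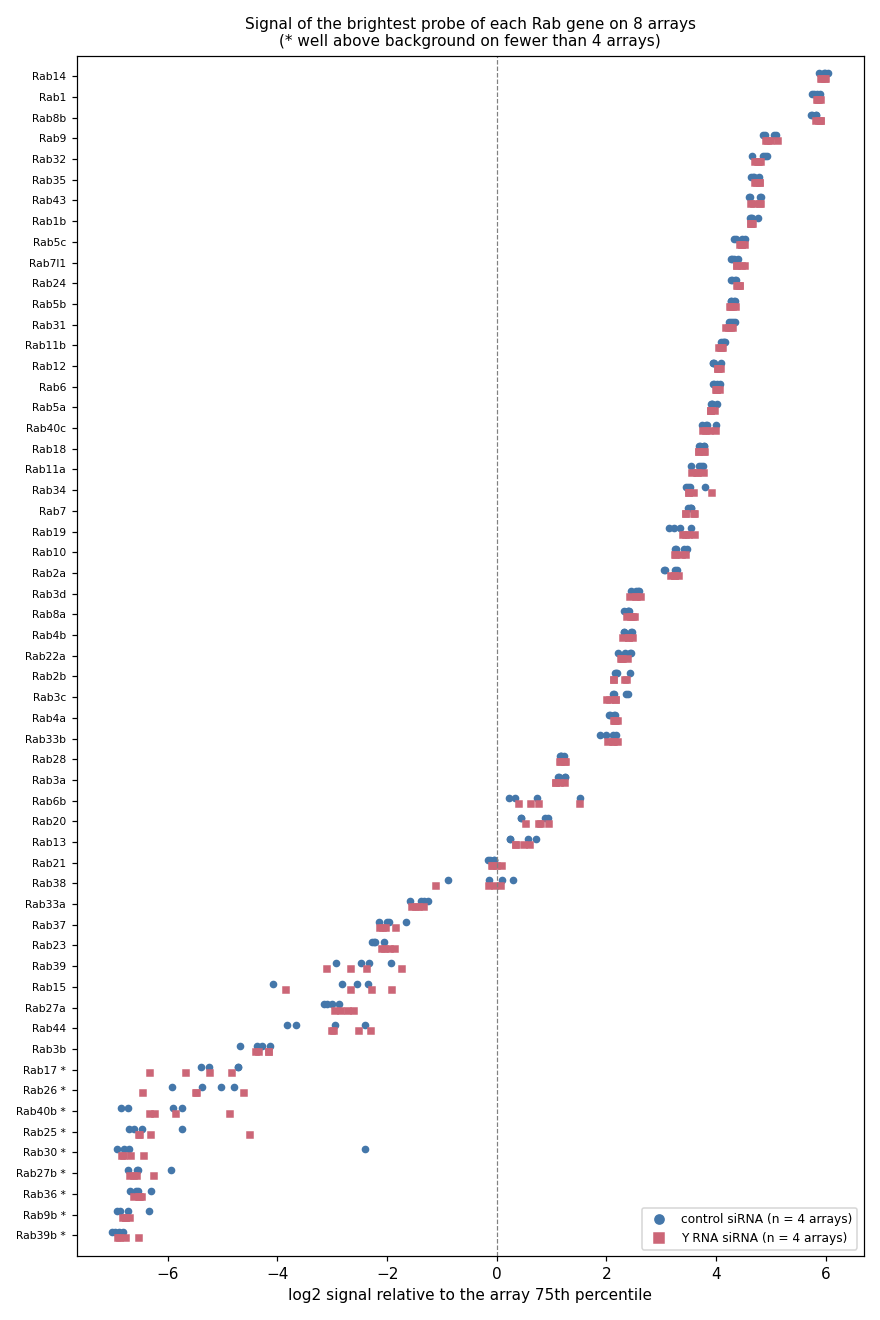
Log2 signal of the brightest probe of each of the 57 Rab genes, relative to the array's 75th percentile (horizontal axis), with 1 point per array, circles for the control siRNA and squares for the Y RNA siRNA (n = 4 arrays each). Genes are ordered by mean signal, a star marks the 9 genes well above background on fewer than 4 arrays, and Rab14, Rab1 and Rab8b lead the order.

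The probe signals covered a wide range, with 25 Rab genes above a mean of 3, 13 between 0 and 3 and 10 detected genes below 0. Probes differ in how well they bind, so this is an order of probe signals and not of transcript amounts. Rab14, which acts between the Golgi, early endosomes and the phagosome, read 6.04, 5.97, 5.88 and 5.99 in mice 1 to 4 with the control siRNA and 6.00, 5.93, 5.91 and 5.99 with the Y RNA siRNA. Rab1, the Rab of transport from the endoplasmic reticulum to the Golgi, read 5.75, 5.79, 5.85 and 5.89 with the control siRNA and 5.84, 5.88, 5.91 and 5.85 with the Y RNA siRNA. Rab8b, which serves transport to the plasma membrane, read 5.82, 5.74, 5.73 and 5.82 with the control siRNA and 5.91, 5.88, 5.81 and 5.91 with the other.
The ranges of Rab14, 5.88 to 6.04, of Rab1, 5.75 to 5.91, and of Rab8b, 5.73 to 5.91, overlap, so the order of the brightest 3 is within their spread.
Below them came Rab9, which carries receptors from late endosomes back to the Golgi, at 5.06, 4.90, 4.85 and 5.09 with the control siRNA and 5.13, 5.01, 4.91 and 4.95 with the Y RNA siRNA. Rab32, a Rab of lysosome-related organelles and of defence against intracellular bacteria, read 4.66, 4.93, 4.85 and 4.88 with the control siRNA and 4.71, 4.81, 4.76 and 4.77 with the other. Rab35, which recycles cargo to the plasma membrane, read 4.78, 4.69, 4.63 and 4.68 with the control siRNA and 4.80, 4.80, 4.74 and 4.72 with the other.
The 4 values of each siRNA group overlapped for all 3, and neighbours such as Rab32 and Rab35 overlapped each other. At the low end of the detected genes stood Rab27a, Rab44 and Rab3b, with means of -2.91, -2.95 and -4.32.

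No Rab gene passed the test between the siRNA groups. With limma, two-sided, over 4 arrays per group, 0 of the 48 Rab genes tested had a Benjamini-Hochberg adjusted p under 0.05, as did 0% of the 19163 genes tested, and the smallest adjusted p of a Rab gene was 1.0. Without adjustment, Rab23 and Rab27a passed 0.05, which is 2 of 48 or 4.17%, against 3.4% of all genes. Both were higher with the Y RNA siRNA, as were 1.63% of all genes at that p. With the mouse as a fixed block, 0 passed with adjustment (0% of all genes) and 7 without it (14.6%, against 9.32% of all genes), all 7 higher with the Y RNA siRNA (4.74% of all genes in that direction). These were Rab8b, Rab7l1, Rab19, Rab23, Rab15, Rab27a and Rab44, and the smallest adjusted p of a Rab gene was 0.352. A random mouse block gave 11 genes on the whole array (0.0574%) and no Rab gene, with a smallest adjusted p of 0.312 among them. Again 7 Rab genes passed unadjusted (14.6%, against 9.52%), all higher (4.7% of all genes in that direction), with Rab24 in place of Rab15. In such bulk samples fewer cells of a type and less RNA per cell cannot be told apart.

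The differences were small for most of the family. The log2 difference, Y RNA siRNA minus control, ran from -0.15 for Rab38 to 0.51 for Rab44, and 36 of 48 genes lay within 0.1 either way. The median was 0.02 for the Rab genes, where the median of all genes tested was below 0.01. The 95% interval of the difference lay within 1.5-fold either way for 43 of 48 Rab genes (89.6%, against 84.7% of all genes). The 5 exceptions were Rab6b, Rab38, Rab39, Rab15 and Rab44, and for Rab15 and Rab44 it also reached beyond 2-fold, so that 46 of 48 (95.8%) stayed within it, against 95.6% of all genes. These intervals are of the fit without a mouse block, so they include the spread between mice. The SE of the 5 exceptions was 0.31 to 0.50 in that fit. With the mouse as a fixed block it was 0.06 for Rab15 and Rab6b, 0.07 for Rab38, 0.08 for Rab39 and 0.17 for Rab44.

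**Figure D2:**
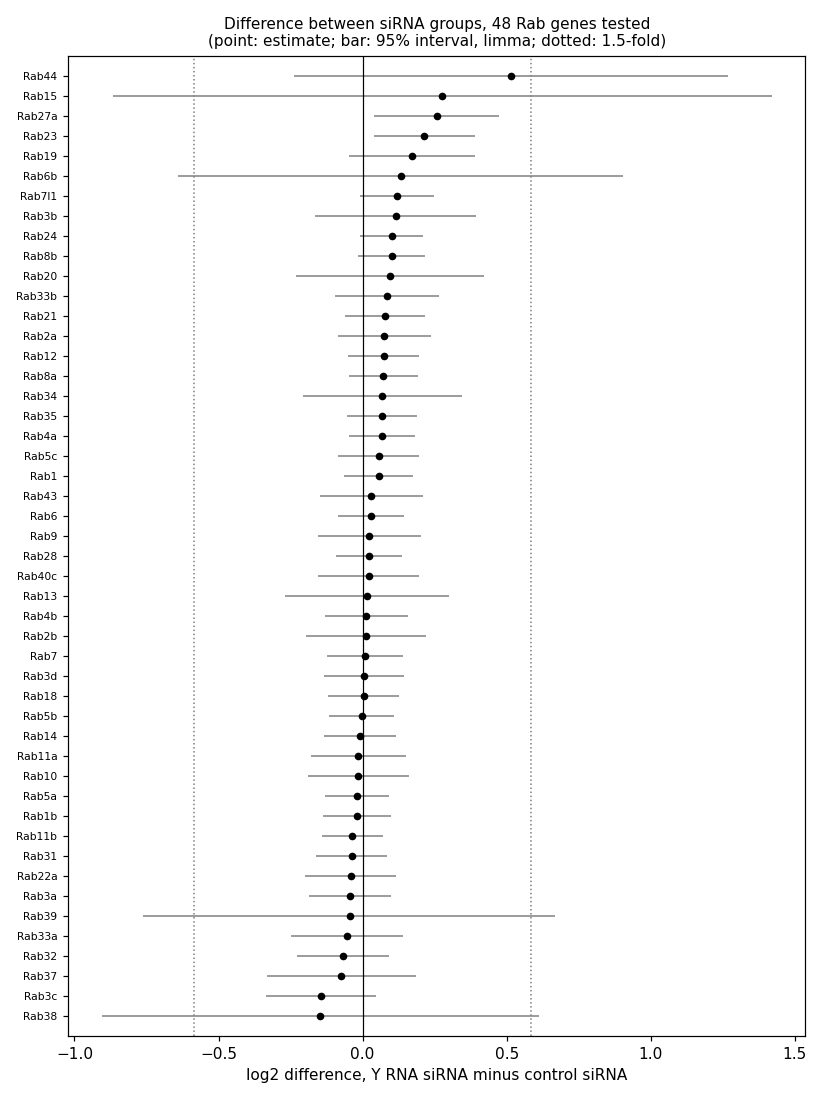
Log2 difference between the siRNA groups (horizontal axis, Y RNA siRNA minus control siRNA) for each of the 48 Rab genes tested, ordered by size, with the limma estimate as a point, its 95% interval as a bar and dotted lines at 1.5-fold. The intervals of Rab23 and Rab27a leave out 0 before adjustment, and those of Rab15 and Rab44 reach beyond 2-fold.

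More Rab genes were higher than lower with the Y RNA siRNA, 32 against 16, or 66.7%, where 52.3% of all genes were higher. This split moved with the scaling. It was 79.2% with median centring, which put 65.5% of all genes higher, and 58.3% with quantile normalization (48.4% of all genes). Leaving out the control array of mouse 3 gave 54.2% (50.2% of all genes) and leaving out the Y RNA siRNA array of mouse 1 gave 56.2% (50% of all genes). Mouse by mouse, the median difference of the 48 genes was 0.04, 0.03, 0.07 and -0.02 in mice 1 to 4, so mouse 4 did not share the direction. Median centring adds the same amount to every difference and brought the number higher to 38, with Rab10, Rab11a, Rab14, Rab5a and Rab5b among those that changed sign. A difference was positive in all 4 mice for 12 Rab genes (25%, against 10.4% of all genes) and negative in all 4 for 1, Rab31 (2.08%, against 8.85%).

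Among the Rabs of early endosomes and phagosome entry, 4 of 8 tested were higher (52.3% of all genes) and 4 lower, with a median of 0.03. Rab5a, Rab5b and Rab5c drive early endosome fusion. Rab5a read 3.92, 3.91, 3.92 and 4.02 with the control siRNA and 3.91, 3.90, 3.97 and 3.91 with the Y RNA siRNA, a difference of -0.02 ± 0.05 (SE). Its probe is printed 10 times on each array, and the SD between single spots was 0.08 to 0.15, wider than the SD of the spot means between mice, which was 0.05 with the control siRNA and 0.03 with the other. Rab5b read 4.32, 4.28, 4.27 and 4.35 with the control siRNA and 4.36, 4.30, 4.26 and 4.28 with the other, a difference that rounds to 0.00 ± 0.05 (SE). Rab5c read 4.33, 4.52, 4.48 and 4.35 with the control siRNA and 4.53, 4.46, 4.48 and 4.43 with the other, a difference of 0.06 ± 0.06 (SE). In all 3 the groups overlapped and the differences were about the size of their standard errors or smaller.

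Rab34 and Rab20 act on phagosome maturation. Rab34 read 3.80, 3.45, 3.52 and 3.49 with the control siRNA and 3.93, 3.50, 3.60 and 3.50 with the Y RNA siRNA. Rab20 read 0.93, 0.44, 0.45 and 0.87 with the control siRNA and 0.95, 0.78, 0.54 and 0.80 with the other. Both arrays of mouse 1 were the highest of their group for Rab34, and for Rab20 mice 2 and 3 were low with the control siRNA. Rab31, Rab22a and Rab21, which also act at endosomes, had differences of -0.04 ± 0.05, -0.04 ± 0.07 and 0.08 ± 0.06 (SE).

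Among the recycling and plasma membrane Rabs, 8 of 12 tested were higher (52.3% of all genes) and 4 lower, with a median of 0.04. Rab8b, whose values are given above, differed by 0.10 ± 0.05 (SE, 95% interval -0.02 to 0.22, n = 4 per group) and was higher in 4 of 4 mice. Rab11a, the main Rab of recycling endosomes, read 3.55, 3.77, 3.72 and 3.69 with the control siRNA and 3.56, 3.67, 3.78 and 3.65 with the Y RNA siRNA. Rab10, which returns TLR4 to the macrophage surface, read 3.47, 3.42, 3.24 and 3.27 with the control siRNA and 3.46, 3.37, 3.26 and 3.25 with the other. The groups overlapped for all 3, and Rab10 was lower on both arrays of mice 3 and 4 than on those of mice 1 and 2. Rab11b, Rab12, Rab8a, Rab4a, Rab4b and Rab13 differed by -0.04 to 0.07, Rab35 by 0.07 ± 0.05 (SE) and Rab14 by -0.01 ± 0.05 (SE).

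All 5 tested Rabs of late endosomes and lysosomes were higher, by 0.01 to 0.12, with a median of 0.02. Of all genes 52.3% were higher, and Rab7, Rab9 and Rab28 differed by less than their SE. Rab7, which directs fusion with lysosomes, read 3.54, 3.53, 3.53 and 3.49 with the control siRNA and 3.61, 3.46, 3.60 and 3.46 with the Y RNA siRNA, a difference of 0.01 ± 0.06 (SE) that turned negative with quantile normalization and with normexp background correction. Rab7l1, which recruits the kinase LRRK2 to membranes, read 4.32, 4.28, 4.30 and 4.39 with the control siRNA and 4.47, 4.38, 4.38 and 4.52 with the other. It differed by 0.12 ± 0.06 (SE, limma unadjusted p = 0.0667), or 0.07 with the mean of its probes, and was higher in 4 of 4 mice.
Rab24, an atypical Rab linked to autophagy, read 4.28, 4.27, 4.36 and 4.34 with the control siRNA and 4.44, 4.43, 4.38 and 4.39 with the Y RNA siRNA. It was the one Rab gene whose 4 arrays of a group did not overlap with the other 4, higher with the Y RNA siRNA (2.08% of 48, against 1.35% of all genes in that direction), and 0 did so in the lower direction (1.09% of all genes). The difference was 0.10 ± 0.05 (SE, 95% interval -0.01 to 0.21), with a limma unadjusted p of 0.0656 and an adjusted p of 1.0. Rab9 and Rab28 differed by 0.02 ± 0.08 and 0.02 ± 0.05 (SE).

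Among the Rabs of secretory granules and lysosome-related organelles, 4 of 9 tested were higher (52.3% of all genes) and 5 lower, with a median of -0.04. Rab27a, which docks secretory granules and is mutated in Griscelli syndrome, read -3.15, -2.997, -2.88 and -3.10 with the control siRNA and -2.60, -2.83, -2.72 and -2.96 with the Y RNA siRNA. It was higher in 4 of 4 mice, yet the groups overlapped. The difference was 0.26 ± 0.09 (SE, 95% interval 0.04 to 0.47, limma unadjusted p = 0.0253). It was 0.16 without mouse 1, 0.16 in the deposited table, 0.16 with array weights and 0.14 with normexp.
Rab44, a large Rab with a calcium-binding region, read -2.40, -3.83, -3.66 and -2.95 with the control siRNA and -2.50, -2.96, -3.01 and -2.30 with the other. Its control arrays of mice 2 and 3 were the lowest of the 8, and the difference of 0.51 ± 0.33 (SE) had an interval of -0.24 to 1.27. That difference was 0.31 without the control array of mouse 2, 0.78 without that of mouse 1, 0.26 with normexp background correction and 0.80 with array weights. Rab38, the close relative of Rab32, differed by -0.15 ± 0.33 (SE) and Rab32 by -0.07 ± 0.07 (SE).
Rab3c, a Rab of regulated exocytosis, read 2.40, 2.13, 2.35 and 2.12 with the control siRNA and 2.18, 2.06, 2.01 and 2.17 with the other, with the control arrays of mice 1 and 3 above the other 6. Rab37, another exocytic Rab, read -2.01, -1.96, -2.14 and -1.66 with the control siRNA and -2.02, -2.07, -2.14 and -1.84 with the other. Rab3b read -4.14, -4.29, -4.69 and -4.37 with the control siRNA and -4.16, -4.33, -4.40 and -4.15 with the other. Neither difference, -0.07 ± 0.11 for Rab37 and 0.11 ± 0.12 for Rab3b (SE), passed the test, and Rab3a and Rab3d differed by -0.04 ± 0.06 and 0.01 ± 0.06 (SE).

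Among the Rabs of the endoplasmic reticulum and Golgi, 9 of 12 tested were higher (52.3% of all genes) and 3 lower, with a median of 0.03. Rab19 read 3.15, 3.34, 3.23 and 3.54 with the control siRNA and 3.39, 3.50, 3.45 and 3.61 with the Y RNA siRNA. It was higher in 4 of 4 mice, by 0.17 ± 0.09 (SE), with the control array of mouse 4 above all but 1 of the Y RNA siRNA arrays. Rab33a read -1.34, -1.58, -1.26 and -1.39 with the control siRNA and -1.42, -1.55, -1.33 and -1.48 with the other, a difference of -0.05 ± 0.08 (SE). Rab1, Rab1b, Rab2a, Rab2b, Rab6, Rab18, Rab43 and Rab33b, which serve transport through the endoplasmic reticulum and Golgi, differed by -0.02 to 0.08. The last 2 of this set, Rab6b and Rab39, differed by 0.13 ± 0.33 and -0.05 ± 0.31 (SE).

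Of the remaining Rabs, Rab23, which restrains Hedgehog signalling at the cilium, read -2.27, -2.05, -2.24 and -2.23 with the control siRNA and -1.94, -2.05, -1.86 and -2.09 with the Y RNA siRNA. It was higher in 4 of 4 mice. The groups overlapped only through the control array of mouse 2, and the difference was 0.21 ± 0.08 (SE, 95% interval 0.04 to 0.39, limma unadjusted p = 0.0222, adjusted p 1.0). The Rab23 difference was 0.09 with the mean of its 2 probes, 0.12 with array weights, 0.13 in the deposited table and 0.14 with normexp. The second Rab23 probe was well above background on 0 arrays, with a mean of -4.65. Rab40c, which recruits a ubiquitin ligase, differed by 0.02 ± 0.08 (SE).

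The larger differences in the family lay between mice. The replicate numbers were taken to mark the mice, so that each mouse has an array of both groups. An F test of the mouse terms beside the siRNA group in limma asked whether any mouse differed. Rab15, Rab6b, Rab38 and Rab39 passed at an adjusted p under 0.05, which is 4 of 48 or 8.33%, against 4.71% of all genes. Without adjustment 14 Rab genes passed (29.2%), against 29.8% of all genes. The same 4 genes were those whose mouse means spanned over 1 log2 unit (8.33%, against 4.61% of all genes), while the median span over the family was 0.15, against 0.25 over all genes.

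**Figure D3:**
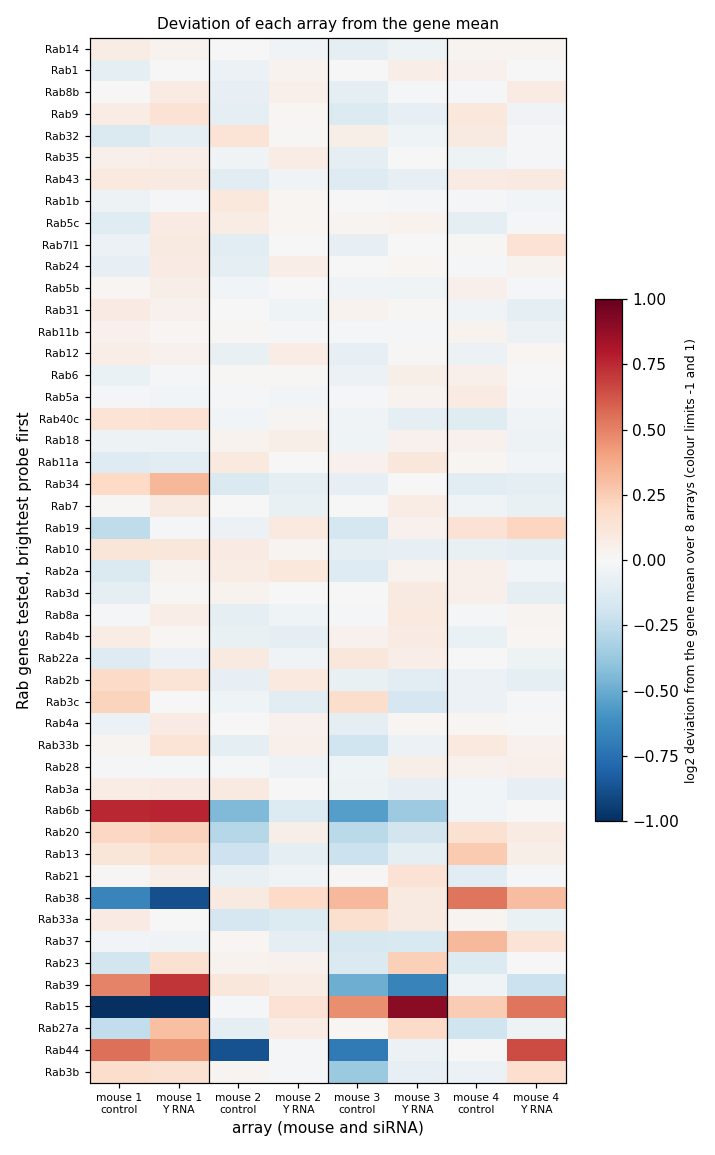
Deviation of each array from the gene's mean over 8 arrays (log2, colour), for the 48 Rab genes tested (vertical axis, brightest probe first) on the 8 arrays (horizontal axis, ordered by mouse, control siRNA left of Y RNA siRNA). Most genes stay near 0 throughout, while Rab6b, Rab38, Rab39 and Rab15 deviate on both arrays of mouse 1.

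Rab15, a Rab of recycling endosomes best known in neurons, read -4.08, -2.83, -2.35 and -2.56 in mice 1 to 4 with the control siRNA and -3.84, -2.67, -1.91 and -2.28 with the Y RNA siRNA. Mouse 1 was lowest in both groups and mouse 3 highest. The mouse means were -3.96, -2.75, -2.13 and -2.42, a 3.55-fold span (limma F test, adjusted p = 0.00528). Rab6b, a Golgi Rab related to Rab6, read 1.52, 0.33, 0.22 and 0.74 with the control siRNA and 1.52, 0.63, 0.40 and 0.77 with the Y RNA siRNA, with mouse 1 above the other 3 mice on both arrays. Its mouse means spanned 2.32-fold (limma F test, adjusted p = 0.0172).
Rab38, which delivers enzymes to lysosome-related organelles, read -0.88, -0.14, 0.10 and 0.30 with the control siRNA and -1.11, -0.04, -0.14 and 0.08 with the other, and both arrays of mouse 1 lay below the other 6 (limma F test, adjusted p = 0.0237). Rab39, which has been linked to phagosome acidification, read -1.94, -2.32, -2.92 and -2.47 with the control siRNA and -1.72, -2.36, -3.10 and -2.65 with the other, with mouse 1 highest and mouse 3 lowest in both groups (limma F test, adjusted p = 0.034). Mouse 1 was thus low for Rab15 and Rab38 and high for Rab6b and Rab39. Next came Rab34, highest in mouse 1 (limma F test, adjusted p = 0.0552), and Rab37, highest in mouse 4 (adjusted p = 0.0988), neither of which passed in this fit. Rab34 did pass with quantile normalization, with normexp, in the deposited table and among genes well above background on all 8 arrays.

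**Figure D4:**
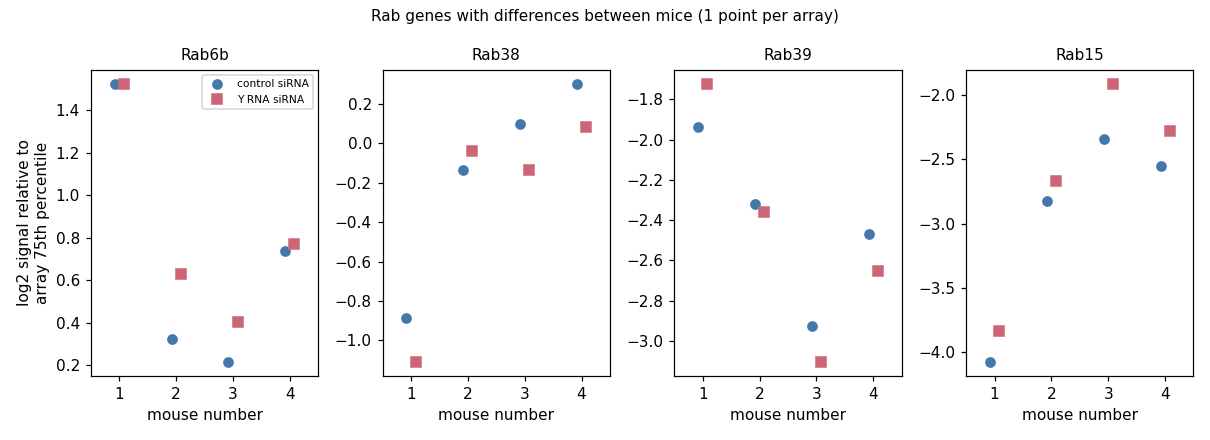
Log2 signal relative to the array's 75th percentile (vertical axis, a separate scale per panel) against mouse number (horizontal axis) for Rab6b, Rab38, Rab39 and Rab15, with 1 point per array, circles for the control siRNA and squares for the Y RNA siRNA. Mouse 1 is the highest for Rab6b and Rab39 and the lowest for Rab38 and Rab15 with both siRNAs.

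These calls rested on mouse 1. Without it 0 Rab genes passed (0.0104% of all genes, 7 Rab genes unadjusted), without mouse 3 only Rab15 (0.845%), without mouse 4 Rab6b and Rab15 (1.75%), and without mouse 2 all 4 (6.34%). Both arrays of mouse 1 also lay outside the other 6 in the summed neutrophil and fibroblast markers. The summed neutrophil markers, 5 of 8 of them well above background, were 2.05 and 2.18 (log2) on its arrays and 2.42 to 2.66 on the other 6. The summed fibroblast markers, 4 of 6 above background with Pdgfra and Lum on none, were -0.32 and 0.11 against 0.81 to 1.55. The summed mast cell and basophil markers, 1 of 5 above background with Cpa3, Mcpt8 and Fcer1a on none, were 0.35 on the Y RNA siRNA array of mouse 1 and -0.80 on its control array, against -1.41 to -0.46 on the other 6, so only the former lay outside that range. The dendritic cell markers summed to 6.37 to 6.59 and the lymphocyte markers to -0.33 to 0.07 over all 8 arrays. The summed macrophage markers were 10.78 on both arrays of mouse 1 and 10.55 to 10.72 on the other 6. Signals were summed before the log, so the brightest gene weighs most in each sum. By mean signal this was Elane for neutrophils, Col1a2 for fibroblasts and Tpsb2 for mast cells and basophils. It was Siglech for dendritic cells and Cd3e for lymphocytes, while Csf1r and Cd68 led the macrophage markers. A sum is therefore not a level shared by its whole list. The part of such cells in the mouse differences was not tested. Mice 1 and 2 lay in 1 row of the slide and mice 3 and 4 in the other. Within a row each mouse held its own pair of neighbouring columns, so the effects of mouse and slide position cannot be told apart.

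For 21 Rab genes the array has several probes, and the probe chosen can change a result. Of the 25 other probes, 19 were well above background on at least 4 arrays, and 14 of these had the same direction between the siRNA groups as the brightest probe and 5 the opposite one. The 2 Rab15 probes printed above lie in the same transcript record. The dimmer one read -2.79, -3.19, -3.16 and -3.07 with the control siRNA and -3.19, -3.36, -3.61 and -3.30 with the Y RNA siRNA, and the groups did not overlap. It was lower with the Y RNA siRNA in 4 of 4 mice, by -0.32 ± 0.12 (SE, limma unadjusted p = 0.0275, adjusted p 1). The brighter one was higher in 4 of 4 mice, by 0.28 ± 0.50 (SE), an SE that holds the spread between mice. Fixed mouse terms in limma lowered that SE to 0.06 (unadjusted p = 0.00513, adjusted p = 0.352). Its difference was -0.10 without the control array of mouse 1, which breaks a pair, and 0.29 without both arrays of mouse 1. On the dimmer probe mouse 1 was the highest mouse in both groups, the reverse of the brighter probe, and the mice did not pass the F test (limma adjusted p = 0.139).
The Rab38 probes printed above overlap, yet the second one read -6.77 to -6.53 and has only a bound, so the mouse difference of Rab38 rests on 1 probe. Rab6b and Rab39 have 1 probe each. Rab3c has 3 probes, of which 2, with means of 2.18 and 1.35, were well above background on 8 arrays and share 54 of their 60 bases. The other Rab3c probe was so on 0 arrays, with a mean of -6.58, so the detection of Rab3c rests on 1 stretch of sequence.
The second probe of Rab43, a Golgi and phagosome Rab, read -0.28, -0.73, -0.71 and -2.78 with the control siRNA and -0.42, -0.37, -0.60 and -0.45 with the Y RNA siRNA. The low value is that of control replicate 4, the RNA with an integrity number of 8 where the other 7 had 10, while the brighter Rab43 probe read 4.81 on that array and 4.59 to 4.82 on the others.

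Genes that act on Rabs showed as little between the siRNA groups. Of 150 listed regulators and effectors 132 were tested, and 68 were higher and 64 lower, with a median of 0.01, where 52.3% of all genes were higher. Of these, 0 passed limma's adjusted threshold, with or without the mouse as a fixed block (0% of all genes in both). Without adjustment or block 2 of the 132 passed 0.05, Dennd2d and Tbc1d16, where 3.4% of all genes did. Of the membrane delivery genes, which include GDI and the geranylgeranyl transferase, 8 of 12 were higher. Rabggta, a transferase subunit, had the smallest p among them, with a difference of -0.15 ± 0.09 (SE). Of the exchange factors 17 of 39 were higher. Dennd2d, an exchange factor of the DENN family, differed by 0.27 ± 0.11 (SE, limma unadjusted p = 0.0348). It was higher in 4 of 4 mice, as were 10.4% of all genes. Rab3il1, which loads Rab8, differed by 0.11 ± 0.05 and Trappc6a, a TRAPP subunit, by -0.10 ± 0.05 (SE).
Of the GTPase activating proteins 18 of 35 were higher. Tbc1d16, picked as the smallest p of this list, was lower in 4 of 4 mice, as were 8.85% of all genes. It read 0.48, 0.45, 0.33 and 0.31 with the control siRNA and 0.16, 0.25, 0.10 and 0.21 with the Y RNA siRNA. The Tbc1d16 groups did not overlap, as held for 1.09% of all genes in that direction. Its difference of -0.22 ± 0.06 (SE) had a limma unadjusted p of 0.00804 and an adjusted p of 1.
Of the effectors 25 of 46 were higher. Eea1, the tether that Rab5 recruits to early endosomes, differed by 0.11 ± 0.06 (SE). Appl2, a Rab5 effector of early endosomes, differed by 0.20 ± 0.11 and Rabep2, which binds Rab5 and Rab4, by 0.34 ± 0.18 (SE). These 3, picked as the smallest p of the effectors, were higher in 4 of 4 mice (limma adjusted p = 1), as were 10.4% of all genes. Rabep2 read 2.58 on the control array of mouse 4, the RNA with an integrity number of 8, and 3.25 to 3.49 on the other controls. Appl2 was also lowest on that array, at 2.355, and in mouse 1 it read 2.728 with the control siRNA and 2.729 with the other. Between mice, 6 of the 132 passed the F test (4.55%, against 4.71% of all genes), namely Dennd2a, Rabgap1l, Usp6nl, Tbc1d30, Sytl3 and Mlph.

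The Rab genes are spread over the genome. Chromosome 17 holds 7 of them, chromosome 9 holds 6 and chromosome 11 holds 5, and 4 are on the X. Within 1 Mb of each other lie Rab43 and Rab7 on chromosome 6, whose probes are 211.6 kb apart, and Rab31 and Rab12 on chromosome 17, 842.4 kb apart. Of the 57 genes 47 matched a 300-base window around an annotated start in RefSeq for GRCm38.p6, and the start listed first was used. Rab18, Rab2a, Rab4a, Rab38, Rab37, Rab44, Rab26, Rab30, Rab27b and Rab36 did not.
In these windows the 42 matched Rab genes above background held a median of 23.5 CG dinucleotides, with a range of 7 to 43. The 5 that were not above background held a median of 10.0, with a range of 5 to 19, and the median over all 27025 genes of that table was 7.0. Those 27025 genes were not split by detection in these cells. The ranges overlap, and with 5 genes the second median is loosely set. The letters CACGTG, the same on both strands, were in 5 of 47 windows, those of Rab24, Rab5a, Rab20, Rab21 and Rab23 (10.6%, against 7.24% of the 27025 genes, with 1 window each). The letters TATAAA, on either strand, were in 3 of 47 (6.38%, against 14.2%).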

How the data were processed

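The deposited scanner files hold spot intensity values made with Agilent Feature Extraction 10.7.3.1, per the file headers, and the processed signal in them is background-subtracted with no scaling between arrays. The authors' deposited table holds log2 values whose method and centring are not stated. Its columns follow the log2 median signal of the same arrays (correlation at least 0.99978, column medians 6.26 to 6.28), and it served as an alternative only. From 62976 spots per array, 3671 control spots and 185 to 234 outlier spots were left out. Processed signals were logged, the array's 75th percentile (9.04 to 9.34, lowest in mouse 1) subtracted, spots averaged per probe, and the brightest probe kept per gene name. Genes well above background on at least 4 of 8 arrays were fitted in limma 3.58.1 (R 4.3.3, lmFit and eBayes, two-sided, Benjamini-Hochberg over all 19163 genes, threshold 0.05) with the siRNA group as the only term. Scripts were tested on simulated data.

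The design text gives 2 conditions on 4 mice, and same-numbered arrays deviated together (correlations 0.62, 0.16, 0.58 and 0.29 over 19125 genes). The numbers were therefore taken to pair the samples, which the labels do not state. Between arrays of different numbers the highest correlation was 0.21, for the Y RNA siRNA array of number 3, above the 0.16 of pair 2. Same-numbered arrays were also neighbours on the slide, so these correlations cannot show that the numbers mark mice. Fits with the mouse as a fixed or random block (correlation 0.53) are given beside the counts. Separate cultures within a mouse are not named. On the slide, columns 1 and 3 held the Y RNA siRNA and columns 2 and 4 the control, so the effects of column and siRNA cannot be told apart.

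Per-array values were given for Rab genes picked by signal, by difference, by p in both tests and by a fixed endosome and phagosome set, and for regulators by the 3 smallest p of each list. Members and lists were chosen with earlier results of these data known. Of 7 marker lists, 1 is not reported here.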

Additional observations from a re-analysis of the deposited data

Results flagged for a closer look

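In 7 of the 114 groups of 4 arrays looked at (57 genes in 2 groups), 1 array lay far from the other 3, with a gap to its nearest neighbour above Dixon's 95% critical value. Chance gives about 1 in 20 groups. Rab30 read -2.41 on the control array of mouse 3, the only array where it was well above background, and -6.92 to -6.71 on the other 3 control arrays. Rab25 read -4.50 on the Y RNA siRNA array of mouse 2 and -6.53 to -6.31 on the others, with no array above background.

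The other 5 were small shifts in detected genes. Rab12 read 4.09 on the control array of mouse 1 against 3.94 to 3.96 on the other controls. Rab5a read 4.02 on the control array of mouse 4 against 3.91 to 3.92, and 3.97 on the Y RNA siRNA array of mouse 3 against 3.90 to 3.91. Rab8a read 2.32 on the control array of mouse 2 against 2.39 to 2.41. Rab2b read 2.43 on the control array of mouse 1 against 2.16 to 2.19.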

How the results depend on the processing

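Under 23 alternatives to the siRNA comparison, 0 Rab genes passed (0 to 7 in limma without adjustment) and their median difference stayed between 0.01 and 0.05. With the random replicate block 11 genes passed on the whole array and 0 with the fixed replicate block. The number of Rab genes detected was 47 to 49. Between mice, 8 Rab genes passed with normexp background correction, Rab34, Rab13, Rab44 and Rab3b beside the same 4 (17.2% of all genes). Rab34 and the same 4 passed with quantile normalization (5.03%), in the deposited table (9.71%) and with the limit of all 8 arrays (6.82%). The number was 4 with median centring (4.3%), 3 with the mean of probes (2.81%), 1 with no filter on dim probes (0.505%), and 0 to 4 with 1 mouse left out. The last alternative and the other Rab15 probe were chosen after seeing the data. Turned directions were all of differences short of the threshold, and the cause was not tested. With median centring Rab10 was 0.0139, Rab11a 0.0149, Rab14 0.0201, Rab5a 0.0103 and Rab5b 0.0256. In the deposited table Rab3b was -0.0288 and Rab5b 0.0266. With array weights Rab14 was 0.0009, Rab5b 0.0034, Rab5c -0.0028 and Rab7 -0.0325. With the mean of probes Rab15 was -0.0198 and Rab37 0.0064. Rab7 was -0.0039 with quantile normalization and -0.0004 with normexp. Leaving out arrays or mice gave -0.0558 to 0.0234 for Rab10, -0.0595 to 0.0204 for Rab11a, -0.0396 to 0.0134 for Rab14, -0.0988 to 0.6639 for Rab15 and -0.0295 to 0.1479 for Rab34. It gave -0.1396 to 0.0221 for Rab37, -0.3897 to 0.1231 for Rab38, -0.2912 to 0.1695 for Rab39, -0.0431 to 0.0099 for Rab5a and -0.0245 to 0.0186 for Rab5b. For Rab6b it gave -0.0994 to 0.4052, for Rab7 -0.0191 to 0.0344 and for Rab9 -0.0203 to 0.0779. Leaving out a single array breaks a pair, so the level of that mouse enters the difference. With a whole mouse left out, Rab15 was 0.2234 to 0.3154, Rab6b 0.0747 to 0.1744, Rab38 -0.2273 to -0.1168 and Rab39 -0.1327 to -0.0002. Among the named Rab genes, Rab1, Rab19, Rab20, Rab23, Rab24, Rab27a, Rab32, Rab33a, Rab35, Rab3c, Rab44, Rab7l1 and Rab8b turned under none of the 23. With 4 arrays per group and no mouse block, the intervals of Rab15, Rab44, Rab6b, Rab38 and Rab39 allow differences beyond 1.5-fold. Their SE was 0.31 to 0.50 in that fit and 0.06 to 0.17 with the mouse as a fixed block.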
